A study of Caenorhabditis elegans with 3 samples.

Results

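The small heat shock protein genes of the nematode worm Caenorhabditis elegans were followed in adult hermaphrodites, with a wild-type mixed reference RNA on the other channel of each array. The family members were the array probes whose single gene symbol was one of 10 listed alpha-crystallin family genes. The rule goes by gene name, but the list was chosen with earlier results of these data known. All 10 were measured, each by 1 probe, among 15092 genes with a value on all 3 arrays. They fell into 4 hsp-12 genes (hsp-12.1, hsp-12.2, hsp-12.3 and hsp-12.6), 3 hsp-16 genes (hsp-16.1, hsp-16.20 and hsp-16.48) and 3 others (hsp-25, hsp-43 and sip-1).

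Small heat shock proteins are built around an alpha-crystallin domain. They bind unfolding proteins without using ATP and hold them until ATP-dependent chaperones can refold them. In C. elegans the hsp-16 genes are the classic heat-inducible members, switched on by the heat shock factor HSF-1, and several members are also targets of DAF-16, the transcription factor restrained by insulin signalling. The hsp-12 proteins are unusually short members.

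Each of the 3 two-colour arrays held 1 prep of adult RNA in channel 2, and the preps form 1 group of 3 replicates. The labels name the adults as TP09, a code they do not explain, and give no strain, genotype, age in days or growth condition; of the reference they say only that it was wild type and mixed, so its stages are not known here. Strain, stage and the make-up of the reference can all enter a ratio, and whether the preps came from separate cultures is not stated, so a p may reflect no more than technical variation among preps. Values are log2 ratios after each array was centred on its median, so a value of 0 is the level of the median probe and 1 unit is a 2-fold difference. The direction is not stated in the labels; the adult prep sits in channel 2 and is named first, so adult over reference is the likely reading, and the opposite one would turn every sign below.

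Between 19807 and 19899 of 20000 probes had a value on an array, and Pearson's r between arrays, across genes and so not across independent replicates, was 0.82 to 0.92. The table holds ratios without brightness, so whether a probe was above background is not known here, and the number of arrays limits the precision. Among 9 measured adult hermaphrodite markers, 6 were called higher and 1 lower, and 2 missed the threshold (median 1.03). Of all genes tested, 20.9% were called higher and 23.5% lower. The defining adult collagen gene col-19 stood at 2.12, the yolk receptor gene rme-2 at 2.30 and cbd-1, an eggshell gene, at 2.21. The yolk protein genes vit-5, at -0.06, and vit-6, at 0.06, missed the threshold. The lower call, of the gene egg-1, was lost without replicate 2 and without replicate 3. To see how row position in the table entered the values, the median of the run of consecutive rows that holds each member was taken (32 equal runs). That of hsp-16.20 was -0.48 on replicate 1 and -0.17 on replicates 2 and 3. Those of the other members lay between -0.01 and 0.22 on replicate 1, -0.11 and 0.18 on replicate 2, and -0.13 and 0.15 on replicate 3.

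Most members that differed between adult and reference were lower in the adult. By limma, with Benjamini-Hochberg adjustment over all 15092 genes and a threshold of 0.05, 5 members were lower and 1 was higher, and 4 missed the threshold. All of the hsp-12 genes were lower, hsp-16.20 was the lower hsp-16 gene, and sip-1 was the higher member. Called members made up 60% of the family, against 44.4% of all genes tested. The lower members made up 50%, against 23.5% of all genes called lower, and the higher one 10%, against 20.9% of all genes called higher. The 3 members that were called lower by over 2-fold made up 30%, against 8.97% of all genes. The median over the members was -0.41, and over all genes tested it was -0.02. These are descriptions of 10 chosen genes, with no test of the list. In whole-animal RNA, fewer cells that express a gene and less of its RNA per cell cannot be told apart.

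**Figure D1:**
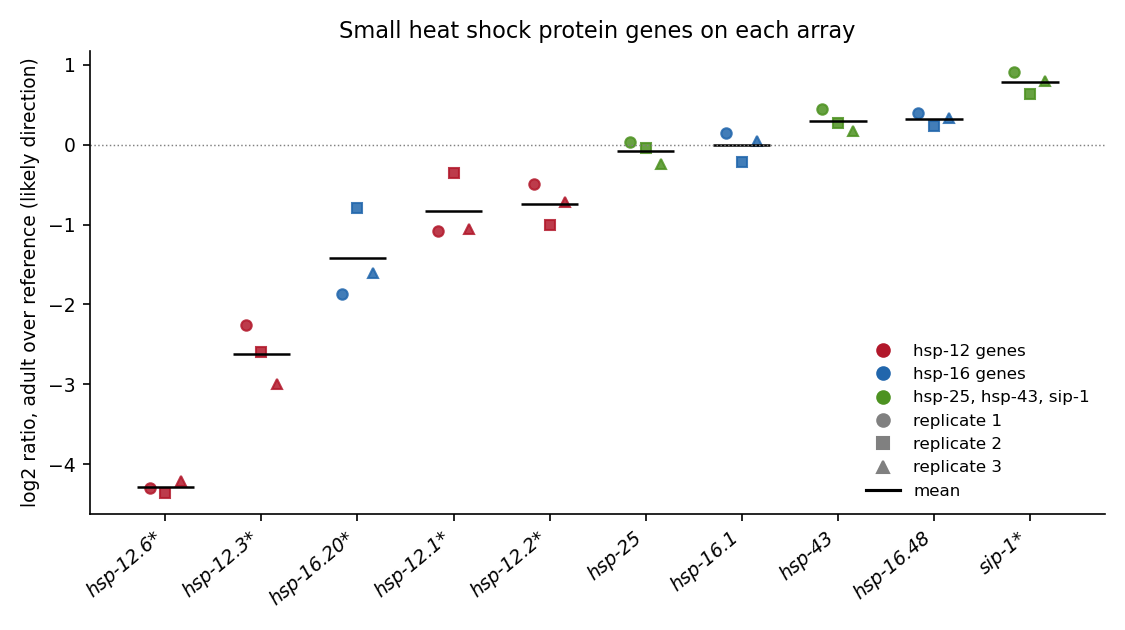
Log2 ratio of adult over reference (vertical axis) for each of the 10 members (horizontal axis, ordered by mean) on the 3 arrays. Symbols are arrays, black bars are means, colours are subgroups and an asterisk marks genes that passed the test; hsp-12.6 lies near -4.29 on every array, and sip-1 is highest at 0.78.

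The hsp-12 genes spanned the widest range of any subgroup. The lowest member was hsp-12.6 (F38E11.2), whose short protein has no chaperone activity in standard assays and which is known as a DAF-16 and HSF-1 target that affects lifespan. It stood at -4.30, -4.36 and -4.21 on replicates 1, 2 and 3, a mean of -4.29 ± 0.07 (SD, n = 3), or 19.5-fold lower in the adult (SE 0.12, adjusted p = 9.73e-06, limma). Its arrays spanned 0.15, and its SD lay below the median SD of 0.21 over all genes. It ranked 10 from the lowest of 15092 genes by its mean, and 10, 6 and 14 on the single arrays.

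Its neighbour hsp-12.3 (F38E11.1), another short family member, was also lower but less so. It stood at -2.26, -2.60 and -3.0, a mean of -2.62 ± 0.37 (SD, n = 3), or 6.14-fold lower (adjusted p = 5.42e-05, limma). Its highest array lay well below 0, and its lowest array lay above every array of hsp-12.6. The difference of hsp-12.3 over hsp-12.6 was 1.67 ± 0.42 (SD over 3 arrays), so these adjacent genes differed in ratio by more than the spread between arrays.

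The other hsp-12 genes were lower by less than 2-fold. The hsp-12.1 gene (T22A3.2) stood at -1.08, -0.36 and -1.05, a mean of -0.83 ± 0.41, or 1.78-fold lower (adjusted p = 0.00613, limma, n = 3). The hsp-12.2 gene (C14B9.1) stood at -0.49, -1.01 and -0.71, a mean of -0.74 ± 0.26, or 1.67-fold lower (adjusted p = 0.00457, limma, n = 3). Every array put both below 0, but replicate 2 was the highest array for hsp-12.1 and the lowest for hsp-12.2, and their ranges overlap. The difference between them was 0.09 ± 0.66 (SD over 3 arrays), with hsp-12.2 above hsp-12.1 on 2 of 3 arrays. Neither passed limma's treat test against a 1.5-fold change (adjusted p = 0.424 for hsp-12.1 and 0.631 for hsp-12.2), while hsp-12.6, hsp-12.3 and hsp-16.20 did, against 7.71% of all genes called lower by that test.

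The hsp-16 genes did not move as one. The lower one was hsp-16.20 (F08H9.3), a member that lies apart from the hsp-16.1 and hsp-16.48 genes. It stood at -1.87, -0.79 and -1.60, a mean of -1.42 ± 0.56 (SD, n = 3), or 2.68-fold lower (adjusted p = 0.00125, limma). All arrays were below 0, and replicate 2 was the highest by a wide margin: the arrays spanned 1.08, the widest span of any member. Its rows carried the strongest shift on replicate 1, with a median of -0.48 in that run of rows, and centring within runs gave a mean of -1.15, with the gene still past the threshold.

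The hsp-16.1 (T27E4.8) and hsp-16.48 (T27E4.3) genes are adjacent heat-inducible genes transcribed away from a shared promoter, and neither passed the test. The hsp-16.1 gene stood at 0.14, -0.22 and 0.05, a mean of -0.01 ± 0.19 with a 95% interval of -0.32 to 0.30 (adjusted p = 0.970, limma, n = 3). The hsp-16.48 gene stood at 0.40, 0.24 and 0.34, a mean of 0.33 ± 0.08 with a 95% interval, unadjusted, of 0.04 to 0.61 (adjusted p = 0.0648, limma, n = 3). All 3 arrays of hsp-16.48 lay above all 3 of hsp-16.1, whose sign differed between arrays. The hsp-16.48 call depends on the setting: it passed with array weights (adjusted p = 0.0217, limma) and with centring within runs of rows (adjusted p = 0.0473, limma). The array weights were 0.37, 1.03 and 2.60 for replicates 1, 2 and 3, so replicate 1 counted least. A level near that of the median probe does not show how strongly these genes were expressed, since a ratio carries no level.

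Among the remaining members, sip-1 (F43D9.4), a small heat shock protein gene known from oocytes and embryos, was higher. It stood at 0.91, 0.64 and 0.79, a mean of 0.78 ± 0.14 (SD, n = 3), or 1.72-fold higher in the adult (adjusted p = 0.00196, limma). Its lowest array lay above the highest array of every other member. It did not pass treat against a 1.5-fold change (adjusted p = 0.362). Among 8 measured embryo markers, 3 were called higher and 2 lower, and 3 missed the threshold. Over all genes tested, the shares were 20.9% higher and 23.5% lower. The embryo list had medians of 0.06, -0.06 and 0.06 on replicates 1 to 3. The maternal germline gene pie-1 stood at 1.70, sdz-6 at 1.35 and the gut specification gene med-1 at -0.97. The embryo list shares skn-1 and pha-4 with the regulators described below, and 1 of its genes was called lower without replicate 2, without replicate 3 and with centring within runs of rows. Its part in the sip-1 value was not tested.

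The hsp-25 gene (C09B8.6), whose protein sits at muscle attachment structures, and hsp-43 (C14F11.5), which encodes one of the larger members, did not pass. The hsp-25 gene stood at 0.03, -0.04 and -0.24, a mean of -0.08 ± 0.14 with a 95% interval of -0.38 to 0.21 (adjusted p = 0.627, limma, n = 3). The hsp-43 gene stood at 0.44, 0.27 and 0.17, a mean of 0.29 ± 0.13 (adjusted p = 0.0979, limma, n = 3). The sign of hsp-25 differed between arrays, while hsp-43 was above 0 on all of them.

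**Figure D2:**
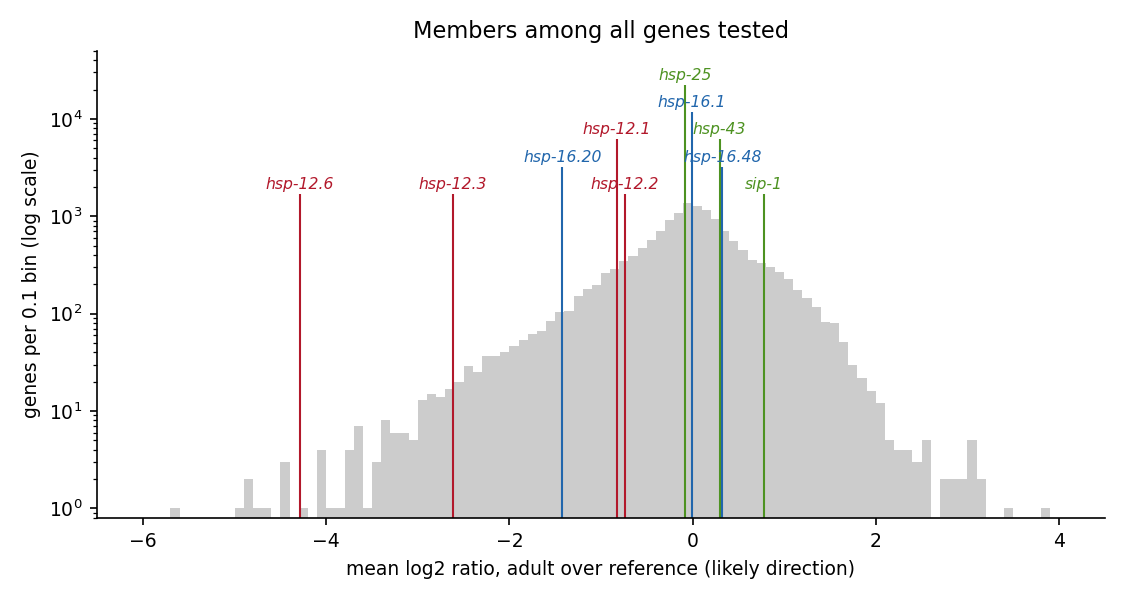
Histogram of the mean log2 ratio of all 15092 genes (grey, log count axis, bins of 0.1) with the 10 members as coloured lines (red hsp-12, blue hsp-16, green the others). The line of hsp-12.6 stands in the thin lower tail, while hsp-25 and hsp-16.1 stand at the peak of the histogram.

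Ordered by mean, the members ran hsp-12.6, hsp-12.3, hsp-16.20, hsp-12.1, hsp-12.2, hsp-25, hsp-16.1, hsp-43, hsp-16.48 and sip-1. The ranges of neighbours in this order did not overlap between hsp-12.6 and hsp-12.3, hsp-12.3 and hsp-16.20, hsp-12.2 and hsp-25, hsp-16.1 and hsp-43, and hsp-16.48 and sip-1. They overlapped between hsp-16.20 and hsp-12.1, hsp-12.1 and hsp-12.2, hsp-25 and hsp-16.1, and hsp-43 and hsp-16.48, so the order within those pairs lay inside the spread between arrays, except that hsp-16.20 was below hsp-12.1 on 3 of 3 arrays (difference 0.59 ± 0.18, SD).

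Averaged by subgroup, the hsp-12 genes were lowest on every array, the hsp-16 genes came next and the other members were highest. The mean over the 4 hsp-12 genes was -2.03, -2.08 and -2.24 on replicates 1 to 3. The mean over the 3 hsp-16 genes was -0.44, -0.26 and -0.40, and over hsp-25, hsp-43 and sip-1 it was 0.46, 0.29 and 0.24. The subgroup ranges did not overlap. The hsp-16 mean exceeded the hsp-12 mean by 1.75 ± 0.14, and the mean of the others exceeded the hsp-16 mean by 0.70 ± 0.18 (SD over 3 arrays). These means rest on a few members: the hsp-12 mean is set largely by hsp-12.6 and hsp-12.3, the hsp-16 mean by hsp-16.20, and the mean of the others by sip-1. The median of the hsp-16 gene means was -0.01 against -1.72 for the hsp-12 genes. Single members crossed the subgroup order, since hsp-16.20 lay below hsp-12.1 and hsp-12.2, hsp-16.48 lay above hsp-43 and hsp-25, and hsp-16.1 lay above hsp-25 by their means.

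**Figure D3:**
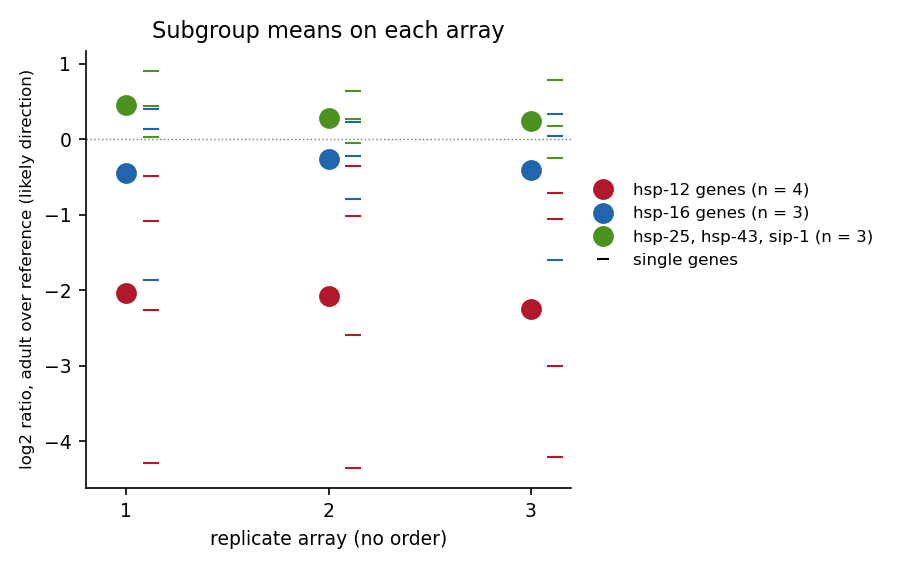
Mean log2 ratio of each subgroup (filled circles) and its single genes (dashes) on the 3 arrays, whose order has no meaning. The hsp-12 mean stays between -2.24 and -2.03, the hsp-16 mean between -0.44 and -0.26, and the mean of hsp-25, hsp-43 and sip-1 between 0.24 and 0.46.

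Of 8 further family genes that were listed, 5 were measured. The hsp-16.21 gene (F08H9.4) was lower, at -0.87, -0.51 and -0.26, a mean of -0.55 ± 0.31 (adjusted p = 0.0214, limma, n = 3). ZK1128.7 was lower as well, at -0.67, -0.20 and -0.76, a mean of -0.55 ± 0.30 (adjusted p = 0.0205, limma, n = 3). The hsp-16.11 gene (T27E4.2) stood at -0.59, -0.22 and -0.38, a mean of -0.40 ± 0.19 (adjusted p = 0.0431, limma, n = 3), a call lost without any 1 of the replicates (adjusted p = 0.0639 to 0.180) and with the values as deposited (adjusted p = 0.0518). The calls of hsp-16.21 and ZK1128.7 were lost with centring within runs of rows (adjusted p = 0.0546) and without replicate 3 (adjusted p = 0.152), respectively, and without replicate 3 1 of the 5 was called lower. The hsp-16.49 gene (T27E4.9) at -0.06 ± 0.17 and hsp-17 (F52E1.7) at -0.08 ± 0.33 did not pass. The heat-inducible genes hsp-16.2 and hsp-16.41 were not analysed here, nor was Y55F3BR.6. Genes of the hsp-16 cluster are close copies (hsp-16.1 of hsp-16.11, and hsp-16.48 of hsp-16.49), so a probe may take up signal from its copy and their separate values are uncertain.

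Several members lie next to one another in the genome, and neighbours outside the family stood on both sides of 0. In gene order, hsp-12.3 and hsp-12.6 are adjacent, hsp-16.1, hsp-16.48, hsp-16.49 and hsp-16.11 form a run, and hsp-16.20 lies beside hsp-16.21. Around hsp-12.3 and hsp-12.6, the flanking gene F38E11.9 stood at -1.30 ± 0.40 and cutl-17 on the other side at -0.47 ± 0.34, both called lower and both above all arrays of hsp-12.3. Beside hsp-16.1, the neighbour T27E4.7 was lower at -1.93 ± 0.32 (adjusted p = 0.000112, limma, n = 3), and at the other end of that run T27E4.1 stood at -0.89 ± 0.25. Beside hsp-16.20, F08H9.2 did not pass, at -0.18 ± 0.25. Next to sip-1, sly-1, a gene of vesicle transport, was higher at 0.75 ± 0.27, and so was taf-11.3, 2 places away on the other side, at 0.86 ± 0.36. Over the 45 protein-coding genes within 3 places of a member, with the family left out, 39 were measured, of which 10 were called higher, 9 lower and 20 neither (median 0.00); of all genes tested, 20.9% were called higher and 23.5% lower. Whether members and neighbours share ratios was not tested.

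**Figure D4:**
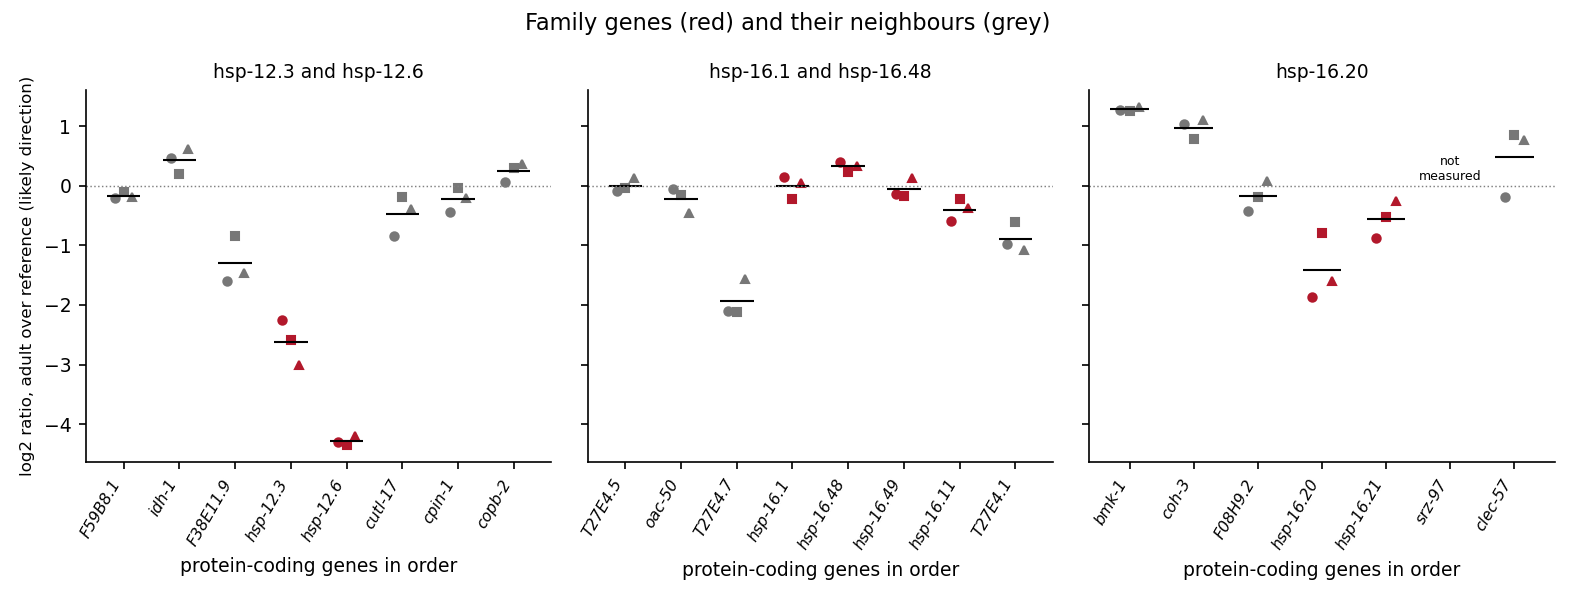
Log2 ratio of adult over reference (vertical axis) for protein-coding genes in their order along the chromosome, around hsp-12.3 and hsp-12.6, around the hsp-16.1 run and around hsp-16.20. Symbols are the 3 arrays (circle replicate 1, square replicate 2, triangle replicate 3), bars are means, red marks family genes and grey their neighbours; hsp-12.3 and hsp-12.6 lie below all of the neighbours shown beside them.

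Genes listed as ATP-dependent chaperones and their partners stood mostly on the higher side. The list is wider than the chaperones that refold what small heat shock proteins hold. Among 17 measured, 13 were called higher, 2 lower and 2 neither. Across all genes tested, 20.9% were called higher and 23.5% lower. The list median was 0.74, against -0.02 over all genes. The highest were the nucleotide exchange factor gene hsp-110 at 1.59 ± 0.09 and the constitutive HSP70 gene hsp-1 at 1.53 ± 0.21. The lower ones were heat-inducible HSP70 genes, hsp-70 (C12C8.1) at -1.94, -1.53 and -1.99, a mean of -1.82 ± 0.25 (adjusted p = 0.000105, limma, n = 3), and F44E5.5 at -0.65 ± 0.18. Heat-inducible genes did not share one ratio in these preps: hsp-70 lay below all arrays of hsp-16.1 and hsp-16.48.

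Regulators went both ways. Among 21 heat shock and insulin pathway regulators, 8 were called higher, 4 lower and 9 neither (median 0.07). Calls in both directions were also found over all genes tested, 20.9% higher and 23.5% lower. The lowest was pqm-1, a zinc finger factor that acts in opposition to DAF-16, at -1.75 ± 0.40, and the insulin-pathway kinase gene akt-2 stood at -0.98 ± 0.37. Among the higher ones was hcf-1, a nuclear partner of DAF-16, at 0.72 ± 0.17 (adjusted p = 0.00308, limma, n = 3). Without replicate 3 the counts were 4 higher and 2 lower, and with centring within runs of rows 5 were higher. The regulators named above for the family did not pass: daf-16 stood at -0.07 ± 0.15 (adjusted p = 0.698, limma), and hsf-1 at -0.93, 0.26 and 1.66 (adjusted p = 0.553, limma, n = 3). The hsf-1 value rests on 2 probes that disagree, of which 1 ran from -1.82 on replicate 1 to 2.50 on replicate 3 with no value on replicate 2, and the other from -0.03 to 0.82.

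DAF-16 pathway targets stood mostly on the lower side. Among 23 measured, 14 were called lower, 4 higher and 5 neither (median -0.66), against 23.5% lower and 20.9% higher over all genes tested. The higher ones numbered 2 without replicate 2, without replicate 3 and with centring within runs of rows. The lowest were dod-3, named for lying downstream of daf-16, at -3.76 ± 0.72, the metallothionein gene mtl-1 at -2.94 ± 0.68 and the glyoxylate cycle gene icl-1 at -2.48 ± 0.57. The classic target sod-3, a mitochondrial superoxide dismutase gene, stood at 0.04 ± 0.09 and did not pass, and mtl-2 was higher at 0.74 ± 0.29, so the list did not move as one.

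Markers of larval stages also stood mostly lower. The dauer larva is the long-lived, non-feeding stage in which hsp-12.6 is known to be abundant. Among 7 measured dauer markers, 5 were called lower and 2 neither. For this and the next lists, the share called lower over all genes tested was 23.5%. The dauer list had medians of -1.46, -1.30 and -1.94 on replicates 1 to 3. The collagen gene col-2 stood at -4.06 ± 0.22 and the cuticlin gene cut-1 at -3.17 ± 0.29, while ctl-1, at 0.07, did not pass. The dauer list shares lea-1, scl-1, ctl-1 and icl-1 with the DAF-16 targets. Among 8 larval epidermis markers, 6 were called lower and 2 neither, and the medians were -1.20, -0.92 and -1.17; the lowest were grl-7 at -3.01, grl-20 at -2.85 and mlt-10 at -1.53, and without replicate 3 another 1 was called higher. The 8 male and sperm markers do not mark a larval stage, and most did not pass: 3 were called lower and 5 neither (median -0.40). The lowest were the major sperm protein genes msp-51 at -1.28, msp-3 at -0.79 and msp-31 at -0.70, while the highest, lov-1, stood at 0.16. What part the stages and cells marked by these lists have in the values of hsp-12.6, hsp-12.3 and hsp-16.20 was not tested.

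**Figure D5:**
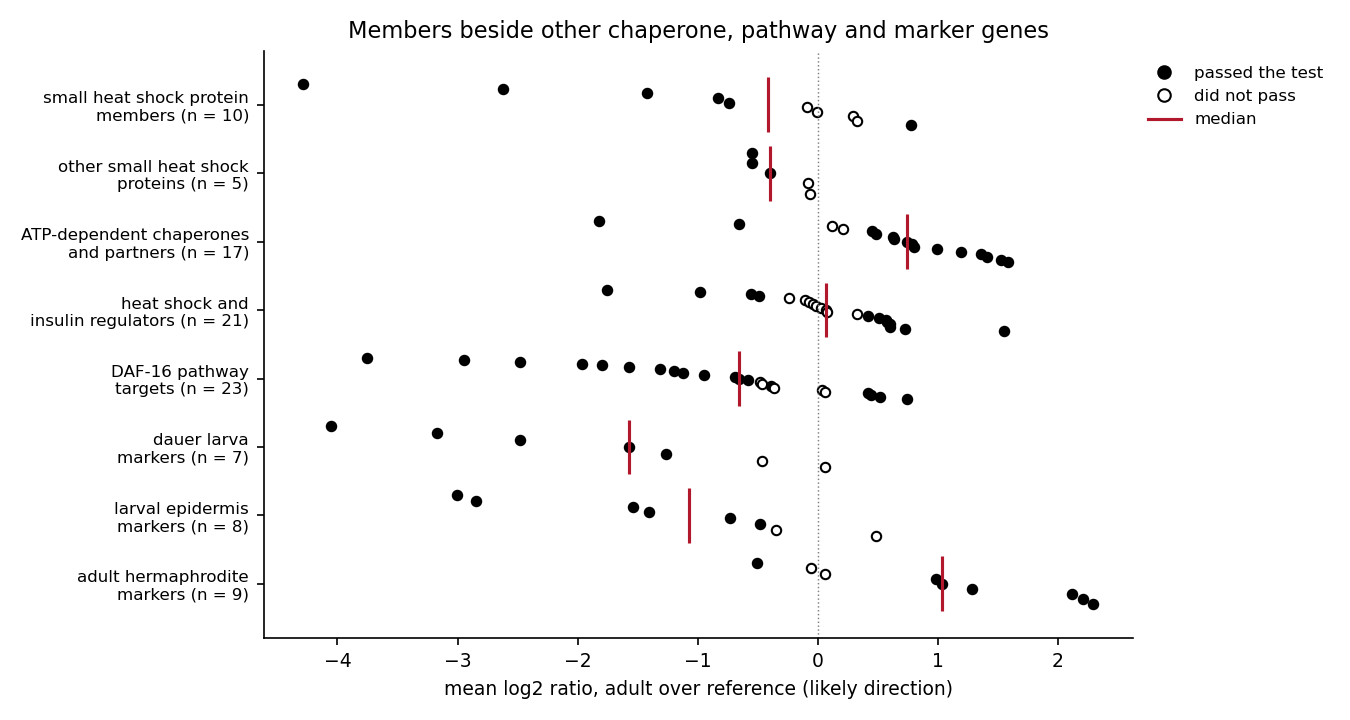
Mean log2 ratio of single genes (dots, filled where the gene passed the test) in the family and in 7 other lists, with list medians as red bars. The ATP-dependent chaperones and partners have a median of 0.74. The medians of the DAF-16 targets, at -0.66, and the dauer markers, at -1.57, lie on the side of the hsp-12 genes.

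The genes outside the family whose values over the 3 arrays lay nearest to the extreme members were found by Euclidean distance. Nearest to hsp-12.6 were the fatty acid desaturase gene fat-3 at a distance of 0.40, scl-2 at 0.44 and the collagen gene col-158 at 0.48. Nearest to sip-1 were asg-1, an ATP synthase subunit gene, at 0.03, Y75B8A.13 at 0.04 and rgs-8.1 at 0.05. With 3 arrays of 1 condition, this likeness reflects chiefly the size of the ratio, and many more genes lie near the size of sip-1 than near that of hsp-12.6.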

How the data were processed

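The deposited table held 1 log2 ratio per probe and array. The scale was read from the deposited values: raised to base 2, all 58013 values within 2 of 0 gave ratios with 3 decimals, at a tolerance of 0.005 thousandths. For dyes, scanner, background treatment, centring and spot filters: not given in the sources used here. Probe names came from the platform annotation of GEO (15655 with 1 symbol, 198 with several, 4147 with none); gene IDs were looked up in the RefSeq WBcel235 gene table, which changed 0 symbols and otherwise served only for locus names and gene order. Arrays were centred on their medians, probes of a gene averaged and 15092 genes tested against 0 with limma 3.58.1 (lmFit, eBayes) in R 4.3.3, on 2 residual and 5.3 prior degrees of freedom; the spread of the reference is left out. The fit was tested on simulated data, with independent normal values and gene variances drawn from the prior fitted to these genes. That simulation held no shifts by row position and no arrays of unequal quality, so it does not check the fit against those.

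The members and lists were chosen with earlier results of these data known. Named were every member, the 3 genes of a list with the largest absolute ratio and the 3 nearest to the lowest and highest member; other genes were named for their position or role, after values were seen. A gene of the regulator list is not reported here by name. The name daf-21 was dropped from the chaperone list as the older name of hsp-90. Promoter motifs and sequences were not analysed here. The alternatives are given in the closing section.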

Additional observations from a re-analysis of the deposited data

How the results depend on the processing

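Under all 11 alternatives per member, hsp-12.6, hsp-12.3, hsp-16.20, hsp-25 and hsp-43 kept their direction and their side of the threshold. Direction was fixed in advance under treat, a robust prior, genes with values on at least 2 arrays and probes tested singly. Those settings keep each member's mean, so only the p could change. Means ran from -4.33 to -4.21 for hsp-12.6, -2.83 to -2.43 for hsp-12.3 and -1.74 to -1.15 for hsp-16.20. The number of lower members was 5 in every setting except treat against 1.5-fold, which asks for a larger effect: it called 3 lower and 0 higher members, and 2076 of all genes. The number of higher members was 2 with array weights and with centring within 32 runs of rows, through hsp-16.48; the cause was not tested. Leaving out 1 replicate gave 4948 to 7102 called genes, always 5 lower members and 1 higher member. The subgroup means were recomputed as deposited, with quantile normalization and with centring within runs, and none moved by more than its SD over the arrays. The values as deposited could not change differences between subgroups, since centring shifts all genes of an array alike. Centring within runs took the hsp-16 mean from -0.367 to -0.272 (SD 0.098), and its excess over the hsp-12 mean from 1.75 to 1.89 (SD 0.14). Leaving out 1 of 3 arrays cannot move a mean by more than that SD, so it was no check here. It gave -2.16 to -2.05 for hsp-12, -0.42 to -0.33 for hsp-16 and 0.26 to 0.37 for the others. Of the values that did not pass, the sign turned for hsp-16.1 as deposited (0.0214) and without replicate 2 (leaving out 1 replicate gave -0.0818 to 0.0964), for hsp-17 with centring within runs (0.0881) and without replicate 3 (-0.254 to 0.0767 over the replicates left out), and for hsp-16.49 with array weights (0.0297); the cause was not tested. No paired analysis was possible because there is 1 group. Depth is unknown, since no intensities were used.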
